A study of Mus musculus with 285 samples.

Results

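The genes described here encode the proteins of the mitochondrial ribosome, and were taken as every gene of the mouse whole transcriptome panel whose name begins with Mrpl or Mrps and a digit. There were 78 of them among 19962 genes, 49 of the large subunit (Mrpl) and 29 of the small subunit (Mrps), each read by 1 probe. A filter on detection, which asked that a gene lie above its library's limit of quantitation in at least 5% of the 225 libraries kept from all kinds of stained area, kept 67 members (44 large and 23 small) among 10020 genes. The 11 that did not pass were Mrpl14, Mrpl15, Mrpl16, Mrpl19, Mrpl47, Mrps27, Mrps28, Mrps30, Mrps31, Mrps35 and Mrps36, and no test was made on them.

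The study asked how the brain responds early to whole-brain radiotherapy at ultra-high dose rate (FLASH) or conventional dose rate (CONV). All mice were tumor-free C57BL/6J, 9 weeks old by the series description (the sources differ on the age), and female by the study's methods. A 6 MeV electron beam gave 10 Gy per fraction, once or in 3 fractions spaced by 48 hours, and FLASH was delivered in 1 pulse whereas CONV ran at 0.09 Gy/s. The 5 groups were sham-irradiated controls (CTRL), FLASH 1x10Gy, FLASH 3x10Gy, CONV 1x10Gy and CONV 3x10Gy, with 3 mice each, and brains were taken 24 hours after the end of treatment. GeoMx digital spatial profiling read barcodes released by light from NeuN-stained areas of paraffin sections of 5 µm, in the pyramidal layers CA1 and CA3, the dentate gyrus (DG), the stratum oriens (SO) and the cortex. A "neuron" library is therefore the NeuN-positive area of a section, and other cells that overlap it contribute RNA. Of 90 neuron libraries, 87 passed the limits on reads and signal. Those left out came from the SO of 1 FLASH 3x10Gy and 1 CONV 1x10Gy mouse and from the cortex of 1 CONV 3x10Gy mouse, so that SO had 13 mice and the other regions 15.

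Mitochondria carry their own small genome and translate its few messages, which encode core subunits of the respiratory chain, on ribosomes of their own. All proteins of these ribosomes are encoded in the nucleus, made in the cytosol and imported. The small subunit decodes the messenger RNA and the large subunit forms the peptide bond. Part of the proteins have bacterial counterparts and part occur only in mitochondrial ribosomes. Neurons depend on oxidative phosphorylation, and inherited defects of single members, among them MRPL3, MRPL44 and MRPS16 in humans, cause respiratory chain disease. Not every name follows function: the protein of Mrps18a sits in the large subunit, that of Mrpl58 is also a peptide release factor that rescues stalled ribosomes, and that of Mrps36 has been assigned to the 2-oxoglutarate dehydrogenase complex.

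Promoters are shown for 4 members that the comparison of regions turns on. Mrpl52, Mrpl57 and Mrps33 were higher in CA3 and lower in the cortex than in the mean of the other regions, and Mrps26 was higher in DG. The stretches are the 250 bases before the annotated start, in GRCm38.p6, from RefSeq. Mrpl52 lies at chr14:54426659-54426908 on the plus strand, Mrpl57 at chr14:57825989-57826238 (plus), Mrps33 at chr6:39810937-39811186 (minus) and Mrps26 at chr2:130563507-130563756 (plus). Capitals mark the core of the NRF1 motif (GCGCNTGCG or its reverse CGCANGCGC) or of the ETS motif (CCGGAAG or CTTCCGG), searched on both strands, since NRF1 and ETS factors such as GABP are known regulators of nuclear genes for mitochondrial proteins.
Mrpl52: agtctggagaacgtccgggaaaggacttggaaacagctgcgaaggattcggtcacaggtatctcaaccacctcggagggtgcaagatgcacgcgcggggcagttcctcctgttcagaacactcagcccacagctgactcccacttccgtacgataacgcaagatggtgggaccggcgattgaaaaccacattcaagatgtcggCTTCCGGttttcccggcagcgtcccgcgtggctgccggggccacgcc
Mrpl57: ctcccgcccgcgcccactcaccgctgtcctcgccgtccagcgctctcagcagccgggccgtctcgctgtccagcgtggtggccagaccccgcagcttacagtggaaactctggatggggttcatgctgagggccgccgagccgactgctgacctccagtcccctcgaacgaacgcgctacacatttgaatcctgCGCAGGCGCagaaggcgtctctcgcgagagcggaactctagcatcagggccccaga
Mrps33: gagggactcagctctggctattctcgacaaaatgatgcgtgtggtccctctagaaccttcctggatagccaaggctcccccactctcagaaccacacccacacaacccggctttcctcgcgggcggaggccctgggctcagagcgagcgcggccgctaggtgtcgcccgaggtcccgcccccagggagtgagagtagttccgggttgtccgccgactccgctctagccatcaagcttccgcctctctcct
Mrps26: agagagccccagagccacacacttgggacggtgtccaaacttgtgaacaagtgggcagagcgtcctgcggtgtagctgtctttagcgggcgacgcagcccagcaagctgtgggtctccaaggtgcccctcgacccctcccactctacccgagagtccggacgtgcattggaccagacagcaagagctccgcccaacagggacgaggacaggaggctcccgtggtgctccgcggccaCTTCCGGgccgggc

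Mrpl52 and Mrps26 each held 1 ETS core, from 47 to 41 and from 14 to 8 bases before the start. Mrpl57 held 1 NRF1 core, from 56 to 48 bases before it, and in Mrps33 neither string of letters occurred. The 3 members called higher in CA3 and lower in the cortex did not hold the same motif. The table held a promoter for 69 of the 78 members. In the same 250 bases an NRF1 core occurred in 15 of them (21.7%) against 5.88% of all 27025 genes in the table, and an ETS core in 18 (26.1%) against 7.83%. Large subunit genes had the NRF1 core in 12 of 43 (27.9%) and small subunit genes in 3 of 26 (11.5%). Among members that differed by region the shares were 20.8% for NRF1 and 25% for ETS (n = 24), and among tested members that did not they were 26.3% and 28.9% (n = 38). These matches are a description of the letters and were not tested.

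All members were read close to the background of the assay. The median large subunit gene lay above the limit of quantitation in 48.3% of the 87 libraries and the median small subunit gene in 28.7%, and no member did so in every library or in none. Mrps26, a small subunit protein found only in mitochondrial ribosomes, was detected in 93.1% of libraries, followed by Mrps33 in 86.2%, and Mrps28 in 1 library. The 11 members that were not tested lay above the limit in 1 to 11 of the 87 neuron libraries (Mrps36 in 8), but in too few of the 225 libraries of all kinds. Relative to the mean of the negative probes, the median count of the tested members ranged from 1.48 to 2.55 for the large subunit (median 1.78) and from 1.29 to 3.56 for the small subunit (median 1.66), with Mrps26 at the top. For all genes tested the median was 1.79. Total gene counts per neuron library ran from 157915 to 2022070 (median 714453). The background share, meaning the mean negative probe count as a percentage of the mean gene count, ran from 36.1% to 79.0% (median 56.7%). Because each gene has 1 probe, levels were compared between samples and not between genes. Each library is a bulk sample of an area, so fewer cells of a type and less RNA per cell cannot be told apart.

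Levels are given as CPM, the count of a gene scaled to a fixed library total. Averaged over each subunit, they differed little between regions. The large subunit mean had its regional medians between 75.7 CPM (cortex) and 78.5 CPM (SO), and the small subunit mean between 71.2 CPM (cortex) and 77.1 CPM (DG). Within a region the mice spread from 71.0 to 80.2 CPM in DG and from 74.3 to 84.3 CPM in SO for the large subunit. For the small subunit they spread from 68.4 to 84.2 CPM in DG and from 64.8 to 77.7 CPM in the cortex. These ranges overlapped, but they do not use the pairing of regions within a mouse. In most mice the small subunit mean was higher in DG than in the cortex, though not in CONV 3x10Gy mouse B (68.4 and 72.3 CPM). The paired differences of the subunit means were not tested. Tests were made on single members. In an edgeR quasi-likelihood fit with the mouse as block and Benjamini-Hochberg adjustment over all genes tested, each region was set against the mean of the other 4, and 25 of the 67 members passed in at least 1 region (15 large and 10 small). This is 37.3% of the members beside 67.1% of all genes tested. The 35 calls had a median size of 0.22 on the log2 scale and none exceeded 0.38, while for all genes the median size of a call was 0.28 and the highest 3.24. Each region also stands in the reference of the other 4 comparisons, so a gene that is high in one region and low in another was not found independently.

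**Figure D1:**
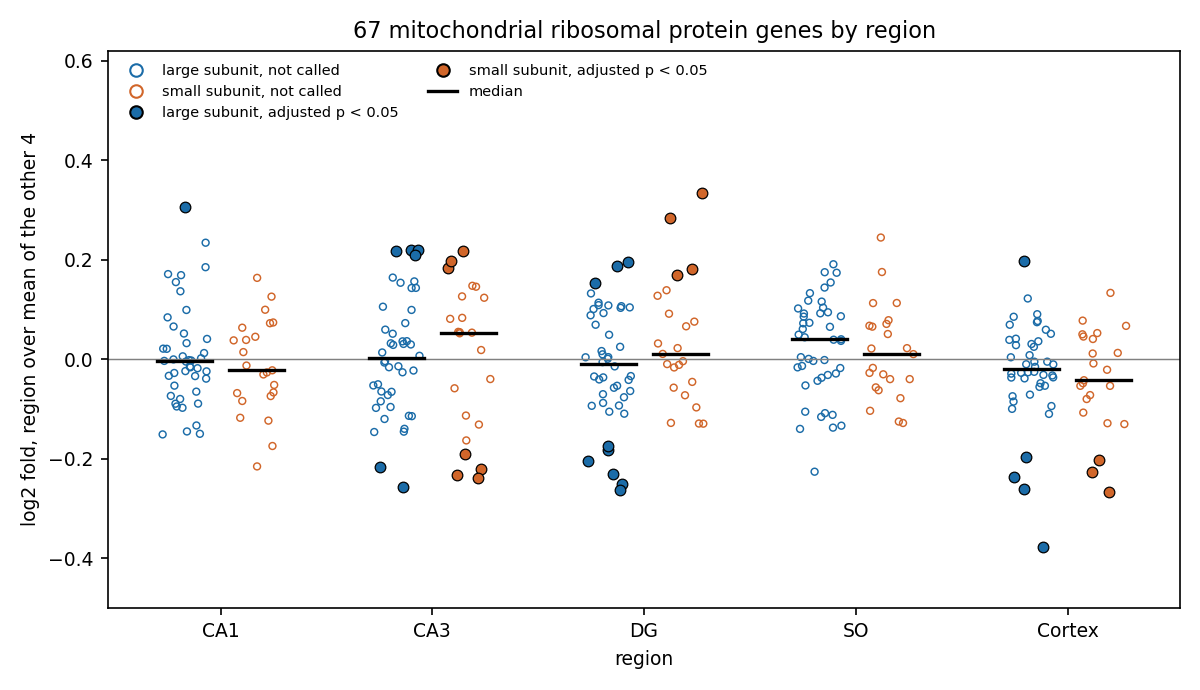
Log2 fold of each region over the mean of the other 4 (vertical axis) for the 67 tested members, with CA1, CA3, DG, SO and cortex along the horizontal axis. Open circles are members that did not pass, filled circles members with adjusted p under 0.05, blue the large and orange the small subunit, and bars the medians, which lie near 0 in every region.

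In CA3, 7 members were higher (10.4% of those tested, where 17.1% of all genes were called higher) and 6 lower (8.96%, against 18.4%). The higher ones were Mrpl57, Mrpl52, Mrps33, Mrpl30, Mrps23, Mrpl20 and Mrps24, with log2 folds from 0.18 to 0.22. Mrpl57, Mrpl52, Mrps33 and Mrps23 encode proteins found only in mitochondrial ribosomes, while Mrpl30, Mrpl20 and Mrps24 have bacterial counterparts. The lower ones were Mrpl23 (-0.26, SE 0.07, adjusted p = 0.000852), Mrpl21, Mrps10, Mrps15, Mrps5 and Mrps18b. Their folds lay between -0.26 and -0.19. Mrps10, Mrps5 and Mrps18b lay above the limit of quantitation in 0% of CA3 libraries. The median over all 67 members was 0.02, and over all genes 0.00.

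In DG, 7 members were higher (10.4%, where 23.5% of all genes were called higher) and 6 lower (8.96%, against 27.8%). Of 23 tested small subunit genes 4 were higher (Mrps26, Mrps5, Mrps16 and Mrps18b) and 0 lower. At an unadjusted p under 0.05, 6 small subunit genes passed in either direction. Of 44 large subunit genes 3 were higher (Mrpl41, Mrpl24 and Mrpl33) and 6 lower (Mrpl43, Mrpl20, Mrpl52, Mrpl58, Mrpl10 and Mrpl55). Mrpl10 belongs to the stalk to which translation factors bind, and Mrpl24 lies at the exit of the peptide tunnel. The difference between the subunits in DG was not tested, and their medians were -0.01 and 0.01.

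The cortex had 1 higher member, Mrpl54 (fold 0.20, SE 0.06, adjusted p = 0.00354, 1.49% of those tested, where 13.3% of all genes were called higher), and 7 lower ones (10.4%, against 15%). The lower ones were Mrpl52, Mrps33, Mrpl57, Mrpl53, Mrps26, Mrpl41 and Mrps9. In CA1 Mrpl52 was higher (1 of 67, 1.49%, against 5.81% of all genes) and 0 members were lower (against 6.55%). At an unadjusted p under 0.05, 7 members passed in CA1. In SO 0 members were called, where 4.32% of all genes were called higher and 2.98% lower, and 4 members had an unadjusted p under 0.05. SO libraries were the shallowest, with a median of 384199 counts, and its standard errors the largest of the 5 regions (median 0.09 for members, 0.06 in the cortex).

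Mrpl52, a large subunit protein without bacterial counterpart, differed in more regions than any other member. Its lowest, median and highest levels over the mice were 57.3, 81.7 and 132 CPM in CA1, 60.4, 74.0 and 96.6 CPM in CA3, and 62.7, 70.6 and 92.0 CPM in SO. In DG they were 33.3, 58.7 and 84.8 CPM, and in the cortex 44.98, 55.0 and 66.3 CPM. CA1 and CA3 each exceeded the cortex in 15 of 15 mice, and CA3 exceeded DG in 14 of 15, although the ranges overlapped. The fold was 0.31 in CA1 (SE 0.08, adjusted p = 0.00235), 0.22 in CA3 (SE 0.06, adjusted p = 0.00378), -0.23 in DG (SE 0.07, adjusted p = 0.00209) and -0.38 in the cortex (SE 0.06, adjusted p = 3.1e-08). CA1 and CA3, neighbours in this order, were split 10 to 5 among the mice, and DG exceeded the cortex in 10 of 15.

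Mrps33 and Mrpl57 shared the order CA3, SO, CA1, DG, cortex by their medians. Mrps33, a small protein of the small subunit, had medians of 129 CPM in CA3 (84.5 to 168), 129 in SO (70.0 to 181), 123 in CA1 (82.1 to 153), 112 in DG (76.4 to 137) and 98.8 in the cortex (76.2 to 113). The first 3 of these medians differ by less than the spread within each region. CA3 was above the cortex in 13 of 15 mice, and the fold was 0.18 in CA3 (SE 0.06, adjusted p = 0.00707) and -0.27 in the cortex (SE 0.05, adjusted p = 1.52e-05). Mrpl57 had medians of 85.2 CPM in CA3 (59.7 to 114), 80.3 in SO (56.2 to 102), 73.4 in CA1 (44.4 to 120), 70.3 in DG (52.7 to 99.9) and 65.6 in the cortex (50.9 to 76.7). Its level in CA3 was above that in the cortex in 14 of 15 mice. The folds were 0.22 in CA3 (SE 0.06, adjusted p = 0.00323) and -0.26 in the cortex (SE 0.06, adjusted p = 0.000141).

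Mrps26 was highest in DG by its median. Its lowest, median and highest levels were 133, 183 and 206 CPM in DG and 104, 157 and 213 CPM in CA3. They were 77.9, 142.5 and 206 CPM in SO, 76.3, 133 and 167 CPM in CA1, and 93.8, 130 and 147 CPM in the cortex. DG exceeded the cortex in 14 of 15 mice and CA1 in all 15. The fold was 0.33 in DG (SE 0.06, adjusted p = 7.31e-08) and -0.23 in the cortex (SE 0.05, adjusted p = 0.00036). Mrpl41, whose protein has also been described as a partner of BCL2, was likewise higher in DG (0.20, SE 0.06, adjusted p = 0.00319) and lower in the cortex (-0.20, SE 0.06, adjusted p = 0.00303).

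DG and CA3 differed in opposite directions for 4 members. Mrps5 and Mrps18b were higher in DG and lower in CA3, and Mrpl20 and Mrpl52 the reverse. Mrps5 ranged from 46.6 to 84.9 CPM in DG (median 67.4) and from 29.8 to 63.6 CPM in CA3 (median 48.1), with DG above CA3 in all but 1 of 15 mice. It lay above the limit of quantitation in 73.3% of DG and 0% of CA3 libraries, and Mrps18b in 60% and 0%. Their CA3 levels are therefore not separated from background. Mrpl20 ranged from 29.4 to 74.3 CPM in DG (median 53.3) and from 48.1 to 103 CPM in CA3 (median 74.97), with CA3 above DG in 13 of 15. Mrps18b, 1 of 3 paralogs with Mrps18a and Mrps18c, had medians of 64.9 CPM in DG and 54.4 CPM in CA3. Mrps18a and Mrps18c were called in no region (smallest adjusted p = 0.138 and 0.0713). Mrpl12, which binds the mitochondrial RNA polymerase, and Mrps12 of the decoding centre were not called either. Mrps12 had a fold of 0.15 in CA3 (adjusted p = 0.0537), and passed there under 5 of the 7 other ways of processing and without any 1 of 6 mice. Mrpl12 had 0.13 in DG (adjusted p = 0.0524), and passed there with upper quartile scaling and without any 1 of 6 mice. Mrpl3 and Mrpl44 had adjusted p of 0.15 or more in every region.

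**Figure D2:**
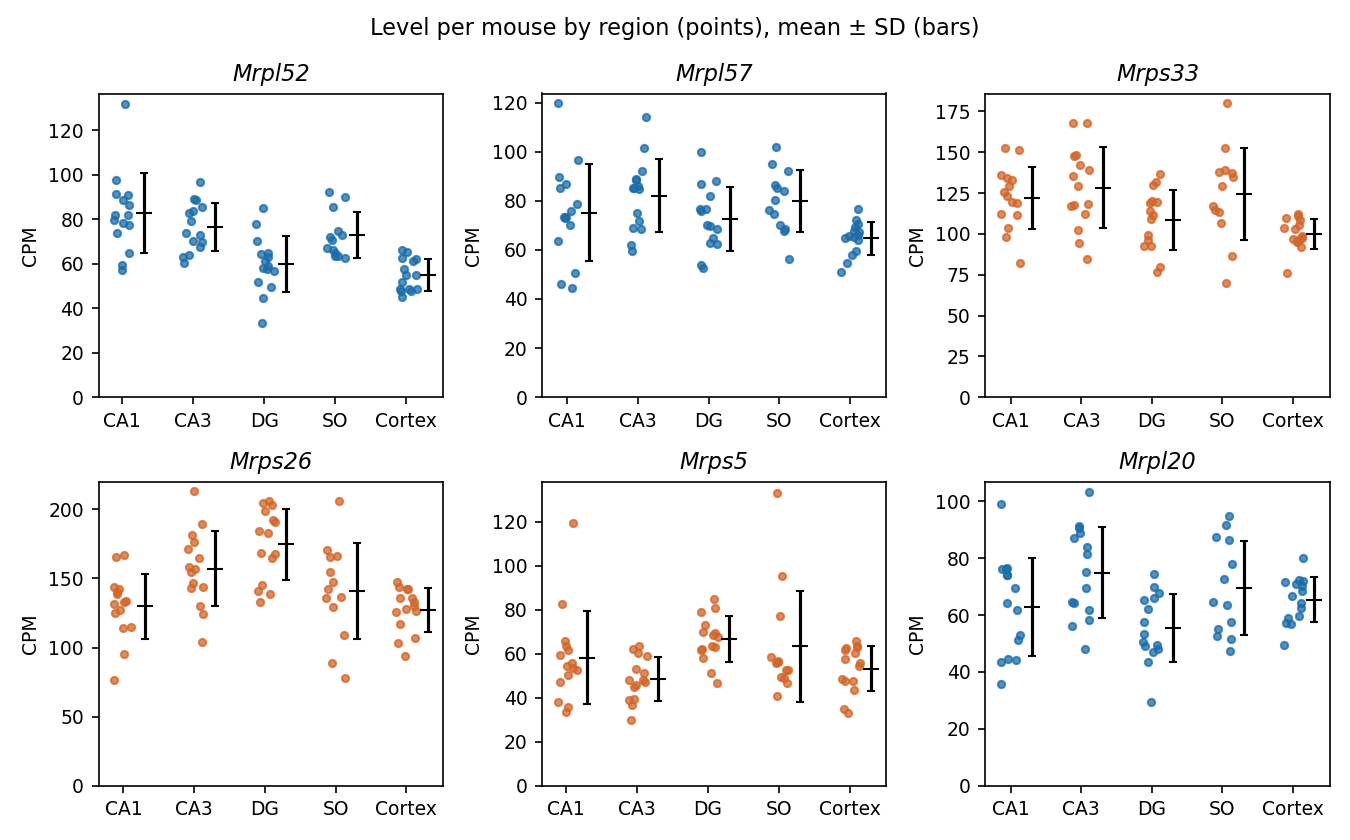
Level in CPM (vertical axis, from 0) of 6 members in each mouse (points) by region, with the mean and SD at the right of each group (n = 15 mice, 13 in SO). Mrpl52, Mrpl57 and Mrps33 are lowest in the cortex, Mrps26 and Mrps5 highest in DG by their medians, and ranges overlap between regions.

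Background moved with region. Over the mice the median background share was 45.8% in DG, 56.8% in SO and in the cortex, 60.0% in CA1 and 61.4% in CA3. With this share added to the fit, 5 of the 13 members called in DG kept their call and direction (1 of 7 higher and 4 of 6 lower), as did 10 of 13 in CA3, 8 of 8 in the cortex and the 1 in CA1. In DG, Mrps26 then had a fold of 0.12 (adjusted p = 0.336), Mrpl41 of 0.00 and Mrps16 of -0.01. In another fit the mean of the negative probes was subtracted from each library instead. There 5 of 13 were kept in DG, 10 of 13 in CA3, 5 of 8 in the cortex and the 1 in CA1. Folds were larger, except that of Mrps26 in DG. Mrpl52 in the cortex then had -1.05 and Mrps5 in DG 1.31, while Mrps26 in DG had 0.31 (adjusted p = 0.00107). Of the 35 calls, 15 passed in the same direction under all 7 other ways of processing, 7 of them in CA3, 5 in the cortex, 2 in DG and 1 in CA1. Those in DG were the lower levels of Mrpl43 (fold -0.25, SE 0.07, adjusted p = 0.00116) and Mrpl55 (-0.18, SE 0.07, adjusted p = 0.0185). Mrpl55 was not called without CTRL mouse C or without CONV 3x10Gy mouse C.

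**Figure D3:**
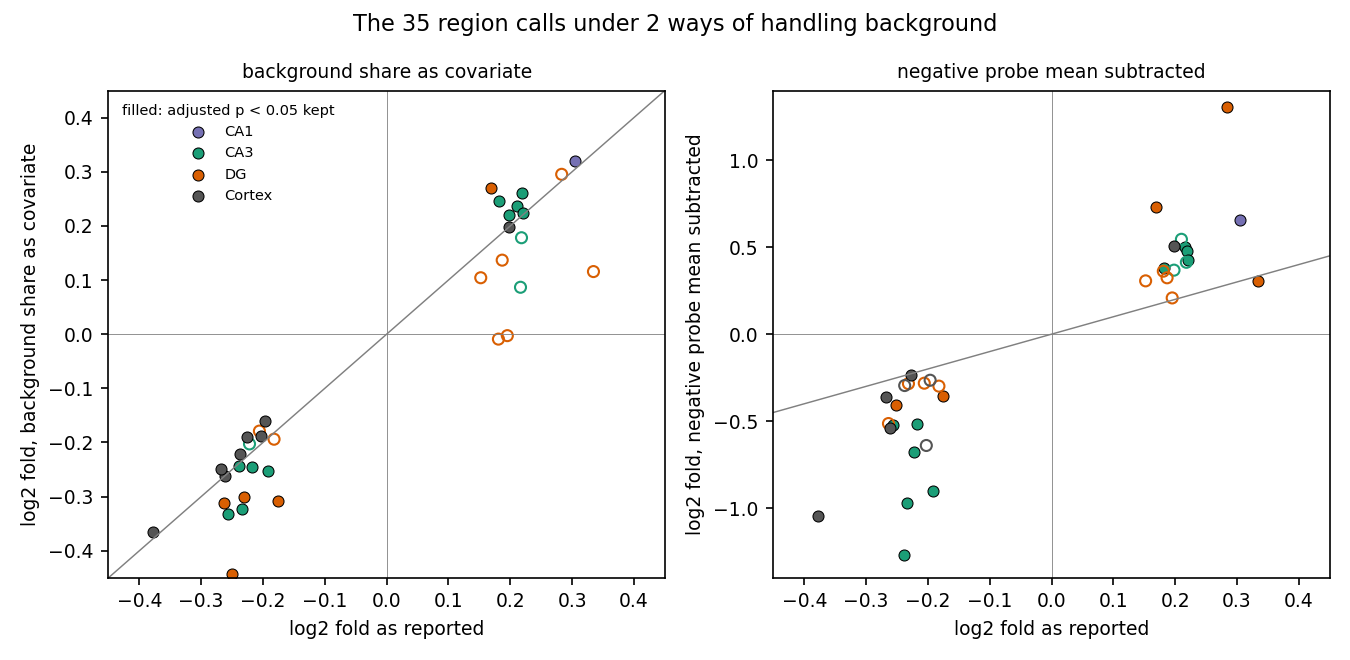
Log2 fold of the 35 region calls as reported (horizontal axis) against the fold with the background share as covariate (left) or with the mean of the negative probes subtracted (right; wider vertical axis), coloured by region. Filled points kept adjusted p under 0.05, the line marks equal values, and most open points in the left panel are from DG.

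Markers of other cell types also moved with region. The summed level of 8 oligodendrocyte markers had a median of 1026 CPM in CA3 (848 to 1453) and 933 CPM in the cortex (486 to 1341), against 607 in DG, 655 in CA1 and 608 in SO. The 8 astrocyte markers had medians from 518 CPM (CA1) to 751 CPM (cortex), the 8 endothelial markers from 440 to 465 CPM and the 7 microglia markers from 314 to 339 CPM. The 10 neuron markers ranged from 2857 CPM in DG to 5979 CPM in CA3 by their medians. By their medians, 4 CA1 markers were highest in CA1 (649 CPM), 4 CA3 markers in CA3 (428 CPM), 4 granule neuron markers in DG (551.1 CPM) and 6 cortical markers in the cortex (594 CPM). No list set SO apart. The CA1 markers had a median of 567.7 CPM in SO (453 to 758), overlapping CA1 (410 to 813). The 5 interneuron markers had medians of 471 CPM in SO and 477 CPM in the cortex, against 313 to 363 CPM in the other regions. The part of other cell types in the members' differences was not tested.

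Other genes of mitochondrial translation were followed in 5 lists with 74 genes, of which 49 could be tested. In DG 11 were higher (22.4%, against 23.5% of all genes) and 6 lower (12.2%, against 27.8%). Fars2, the mitochondrial phenylalanyl-tRNA synthetase, was highest (0.42, SE 0.07, adjusted p = 5.27e-07), and Rbfa, an assembly factor of the small subunit, lowest (-0.36, SE 0.07, adjusted p = 1.72e-05). The assembly GTPases Mtg1 and Mtg2 were higher in DG (0.30 and 0.29) and lower in CA3 (-0.20 and -0.29), and Rpusd4, which modifies the large ribosomal RNA, was lower in DG (-0.28) and higher in CA3 (0.18). Mtfmt, which formylates the initiator tRNA, was higher in DG (0.29) and lower in CA3 (-0.22). In CA3 1 gene was higher and 4 lower (2.04% and 8.16%, against 17.1% and 18.4% of all genes), in the cortex 2 and 3 (4.08% and 6.12%, against 13.3% and 15%), in CA1 2 and 2 (4.08% each, against 5.81% and 6.55%), and in SO 0 and 0. In SO, 3 of the 49 had an unadjusted p under 0.05. The calls of these 49 genes come from the main fit alone. They were not checked under the other ways of processing, including the background share as covariate.

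Irradiation was compared next, with the hippocampal regions summed per mouse and the slide as a factor. The sums held 4 regions, except those of FLASH 3x10Gy mouse B and CONV 1x10Gy mouse C, which lacked SO. In FLASH 1x10Gy against CTRL, 0 of 67 members were called in the hippocampus, where 11.8% of all genes were (645 higher and 533 lower). At an unadjusted p under 0.05, 7 members passed (10.4%), beside 29.5% of all genes. The smallest adjusted p was that of Mrps14, a small subunit protein with a bacterial counterpart. Its levels were 87.4, 84.9 and 88.1 CPM in FLASH 1x10Gy mice and 82.7, 75.9 and 70.0 CPM in CTRL mice. Neither these levels nor the background shares of the groups overlapped. The shares were 49.96% to 52.8% in FLASH 1x10Gy and 54.1% to 67.8% in CTRL mice. The fold of Mrps14 was 0.47 (SE 0.16, adjusted p = 0.054). This fold is adjusted for slide through the other groups, since FLASH 1x10Gy mice lay on slides 4 and 5 and CTRL mice on slides 1, 2 and 4. On slide 4, the one they share, the difference was 0.32 with 1 mouse each. Plate, which was not in the fit, also differed there. The CTRL libraries were on plate E and the hippocampal FLASH 1x10Gy libraries on plates E and F. Mrpl21 had 71.0, 80.9 and 72.9 CPM against 70.8, 94.3 and 92.0 CPM, with overlap (-0.49, SE 0.17, adjusted p = 0.0566). Mrpl34, Mrps12 and Mrps17 followed with folds of -0.43, 0.41 and 0.43 and adjusted p from 0.0819 to 0.0936. Without CTRL mouse A, 3 members passed (Mrpl21, Mrps12 and Mrps14), without CONV 3x10Gy mouse C Mrps12 did, and without FLASH 3x10Gy mouse A Mrpl21 did. The 95% interval of every tested member lay within 1 log2 unit of 0, and that of 38 members within 0.5. These intervals are from counts that include background, and do not bound changes in the signal above it. With the mean of the negative probes subtracted, the edgeR fold of Mrps17 was 1.41 (adjusted p = 0.0441), outside that range.

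The other comparisons with CTRL gave 0 called members in the hippocampus. All genes were called at 0.00998% in FLASH 3x10Gy (1 gene), and at 0 in CONV 1x10Gy, in CONV 3x10Gy and in all irradiated mice together. Members with an unadjusted p under 0.05 numbered 2, 4, 1 and 2. Mrpl40 had the smallest p in FLASH 3x10Gy (-0.33, SE 0.12, adjusted p = 0.983), Mrpl21 in CONV 1x10Gy (-0.38, SE 0.16, adjusted p = 0.999) and Mrps7 in CONV 3x10Gy (-0.35, SE 0.13, adjusted p = 0.999). Over all irradiated mice Mrpl21 had a mean of 73.7 ± 8.59 CPM (SD, n = 12) against 85.7 ± 12.97 CPM (n = 3) in CTRL, a fold of -0.33 (SE 0.11, adjusted p = 0.465). Member medians lay between -0.03 and -0.02 in these comparisons. In FLASH 3x10Gy the 95% interval of 65 of 67 members lay within 0.5 log2 units of 0, and in CONV 3x10Gy that of 63. Here too the counts include background.

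**Figure D4:**
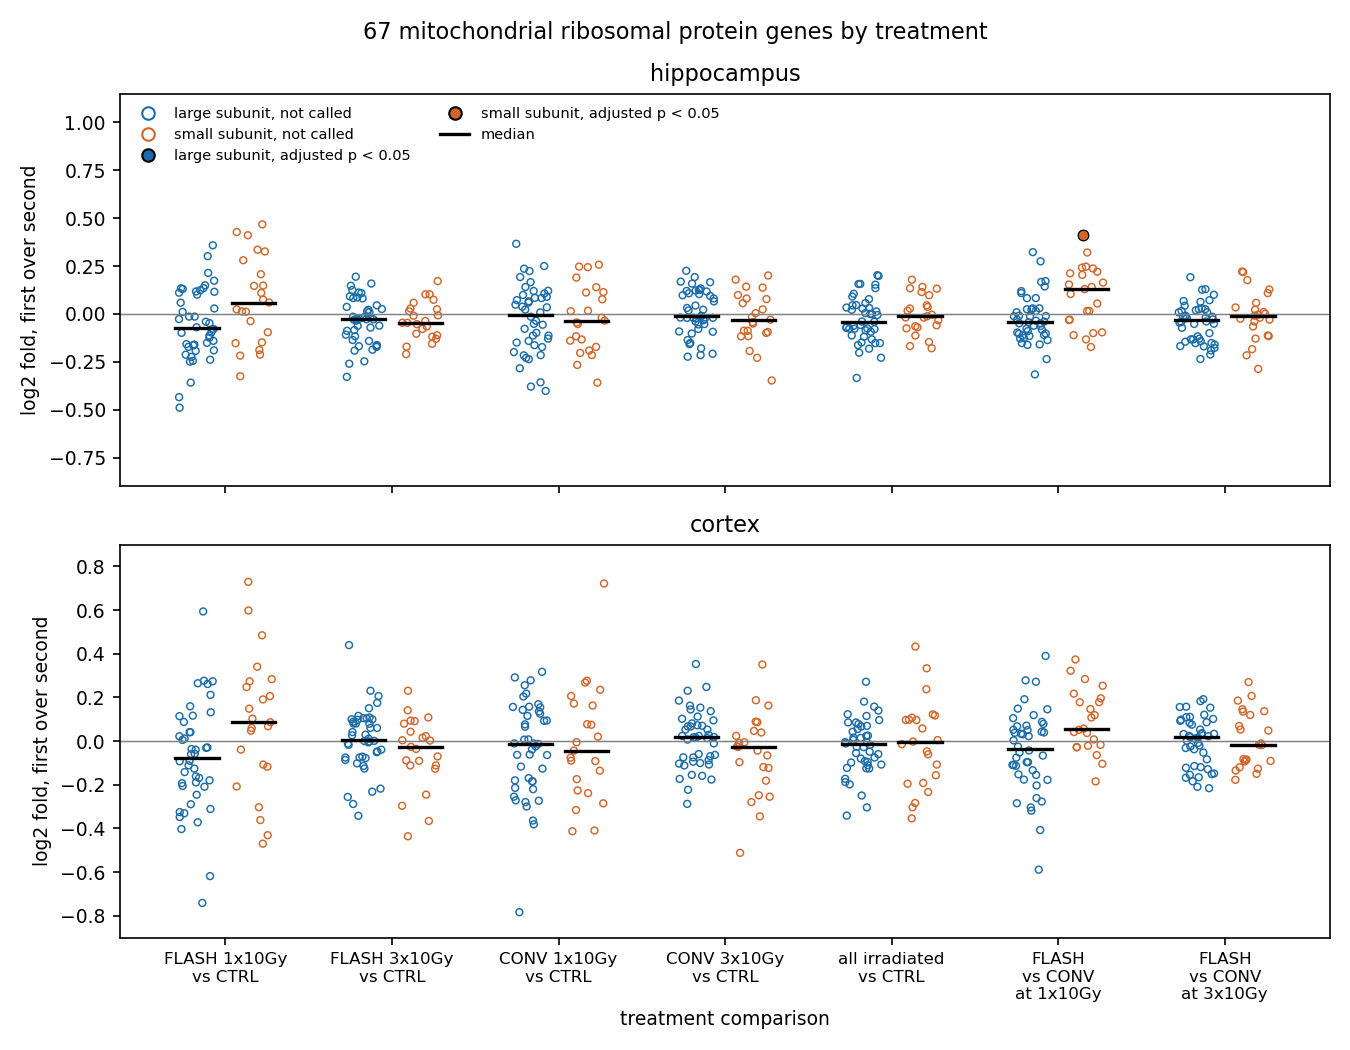
Log2 fold (vertical axis, first over second group) of the 67 tested members in 7 treatment comparisons, in hippocampal neurons (top) and cortical neurons (bottom). Open circles did not pass, the filled circle is Mrps33, the 1 member with adjusted p under 0.05, and bars are medians for the large (blue) and small (orange) subunit.

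Between dose rates, 1 member differed in hippocampal neurons. Mrps33 was higher in FLASH than in CONV at 1x10Gy, 1 of 67 members (1.49%) where 22.3% of all genes were called. Its levels were 140, 124 and 126 CPM in FLASH 1x10Gy mice and 97.2, 104 and 110 CPM in CONV 1x10Gy mice, without overlap (the sum of CONV mouse C, the highest of its group, lacked SO), a fold of 0.41 (SE 0.12, adjusted p = 0.0153). CTRL mice, with 124, 118 and 99.8 CPM, reached into both groups, and neither group was called against CTRL (0.28, adjusted p = 0.237, and -0.13, adjusted p = 0.999). On slide 4, which held 1 mouse of each group, the log2 difference was 0.52, and on slide 5, with 2 FLASH mice and 1 CONV mouse, it was 0.26. The CONV libraries of slide 4 were on plate F and the FLASH libraries on plates E and F. The call was lost without the slide term (0.32, adjusted p = 0.607), with the slide as random block (0.37, adjusted p = 0.174), with DESeq2 (0.42, adjusted p = 0.0777), with negative probes subtracted (0.49, adjusted p = 0.0647) and with the background share as covariate (0.30, adjusted p = 0.631). It was also lost without FLASH 1x10Gy mouse A (0.26, adjusted p = 0.287), CONV 1x10Gy mouse A (0.40, adjusted p = 0.0511) or CONV 1x10Gy mouse B (0.63, adjusted p = 0.168). Background shares of the summed hippocampus were 49.96% to 52.8% in FLASH 1x10Gy and 43.9% to 62.7% in CONV 1x10Gy mice, and the summed neuron markers 4371 to 4418 and 2155 to 4817 CPM.

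The next members by p in that comparison were Mrpl45 (-0.32, adjusted p = 0.0742), Mrpl20 (0.32, adjusted p = 0.0933), Mrps26 (0.32, adjusted p = 0.103) and Mrpl57 (0.27, adjusted p = 0.112). With the background share as covariate the fold of Mrps26 turned to -0.12. Small subunit genes had a median of 0.13, with 16 of 23 above 0, and large subunit genes a median of -0.04, with 15 of 44 above 0. Over all genes the median was -0.01. Averaged per mouse, the small subunit level was 75.2 to 76.0 CPM in FLASH 1x10Gy and 69.0 to 82.0 CPM in CONV 1x10Gy mice, so the groups overlapped. The highest value was that of CONV 1x10Gy mouse C, which had the lowest background share of its group (43.9%). The difference between the subunits was not tested. At 3x10Gy, where 0% of all genes were called, 0 members were called and 1 had an unadjusted p under 0.05. There Mrps18b had the smallest p (-0.29, SE 0.12, adjusted p = 0.558) and Mrps33 a fold of 0.06 (adjusted p = 0.898). Within slides 1, 2 and 3, which each held 1 FLASH and 1 CONV mouse of 3x10Gy, the member medians were -0.03, -0.09 and -0.02.

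**Figure D5:**
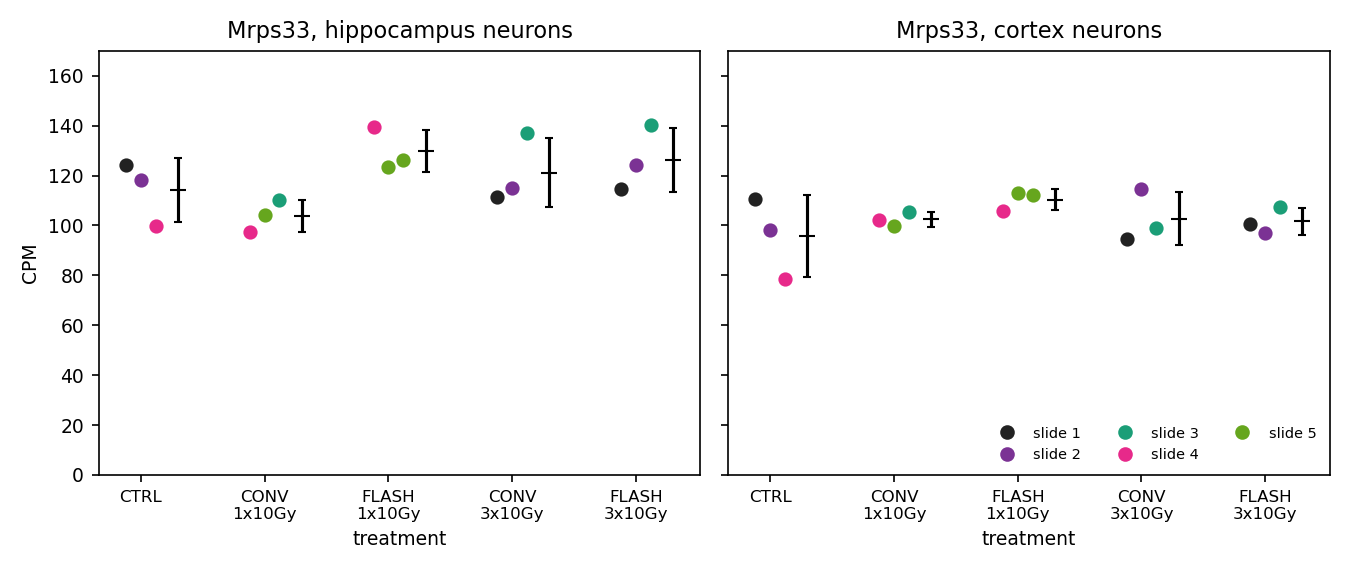
Mrps33 in CPM (vertical axis, from 0) in each mouse by treatment, in hippocampal (left) and cortical (right) neurons, coloured by slide, with mean and SD (n = 3). In the hippocampus the FLASH 1x10Gy mice lie above the CONV 1x10Gy mice, and the CTRL mice span both.

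In cortical neurons 0 members were called in any of the 7 comparisons. All genes were called at 0.00998% in FLASH 3x10Gy against CTRL, at 0.0599% in FLASH against CONV at 1x10Gy, and at 0% in the other 5. Members with an unadjusted p under 0.05 numbered from 0 (FLASH against CONV at 3x10Gy) to 5 (FLASH 1x10Gy and all irradiated mice against CTRL). Mrpl43 was furthest in FLASH against CONV at 1x10Gy, with 84.4 ± 15.7 against 106.5 ± 36.0 CPM (SD, n = 3) (-0.59, SE 0.18, adjusted p = 0.167). It passed without CTRL mouse A (-0.63) or CTRL mouse B (-0.61). Mrpl36 was at -0.74 in FLASH 1x10Gy against CTRL (SE 0.25, adjusted p = 0.201) and passed, with Mrpl10, without CTRL mouse A. In CONV 1x10Gy it was at -0.78 (SE 0.25, adjusted p = 0.795). Mrpl36 had 59.8, 53.7 and 96.6 CPM in CTRL mice A, B and C. It had 51.9, 58.9 and 51.2 CPM in FLASH 1x10Gy mice, which overlapped CTRL, and 46.5, 51.2 and 43.9 CPM in CONV 1x10Gy mice. CTRL mouse C was the only CTRL mouse on a slide with 1x10Gy mice (slide 4), and its cortical background share was 76.7%. Mrps16 was at -0.51 in CONV 3x10Gy (SE 0.17, adjusted p = 0.999) and at -0.37 in FLASH 3x10Gy. The comparisons with CTRL share the CTRL mice. Mrps33 had a fold of 0.18 in the cortex between FLASH and CONV at 1x10Gy (SE 0.17, adjusted p = 0.712). Whether any member responded differently in hippocampus and cortex was tested for each of the 4 treatments, and 0 members passed, with 3, 1, 1 and 4 at an unadjusted p under 0.05 for FLASH 1x10Gy, FLASH 3x10Gy, CONV 1x10Gy and CONV 3x10Gy.

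With each hippocampal region fitted apart, 1 call arose in 24 comparisons. Mrpl4, a large subunit protein with a bacterial counterpart, was lower in CA1 in FLASH than in CONV at 1x10Gy, where 1.16% of all genes were called. Its levels were 61.6, 44.2 and 35.4 CPM in FLASH and 123, 107 and 41.7 CPM in CONV mice, which overlapped, and the fit with slide gave -1.32 (SE 0.31, adjusted p = 0.0173). CTRL mice had 62.6, 47.1 and 82.2 CPM. Mrpl4 lay above the limit of quantitation in 20% of CA1 libraries. The call was lost without CONV 1x10Gy mouse B (-1.05, adjusted p = 0.883) or FLASH 1x10Gy mouse C (-1.18, adjusted p = 0.108). It was kept with upper quartile scaling, DESeq2 gave no adjusted p for it, and it was lost in the 5 other ways of processing that were tried. In the summed hippocampus the fold of Mrpl4 was -0.11 (adjusted p = 0.544).

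The remaining 23 regional comparisons had 0 called members. For FLASH against CONV at 1x10Gy, all genes were called at 8.63% in CA3, 8.64% in DG and 1.19% in SO. For FLASH 1x10Gy against CTRL the shares were 0.2% in CA1, 3.46% in CA3, 5.65% in DG and 0.18% in SO. CONV 1x10Gy against CTRL gave 0.0499% in CA1 and in SO and 0% in CA3 and DG. For FLASH 3x10Gy they were 0.00998% in CA1, 0% in CA3 and DG and 0.0898% in SO, and for CONV 3x10Gy 0.18% in SO and 0% elsewhere. FLASH against CONV at 3x10Gy gave 0.00998% in CA1 and DG, 0.02% in CA3 and 0% in SO.

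Among the other genes of mitochondrial translation, 4 calls were made in the hippocampus. They come from the main fit alone and were not checked under other ways of processing or with mice left out. Aurkaip1, itself a small subunit protein named otherwise, rose in FLASH 1x10Gy against CTRL (0.56, SE 0.17, adjusted p = 0.0318), 1 of 49 (2.04%, against 11.8%). In FLASH against CONV at 1x10Gy the release factor gene Mtrf1l (-0.44, adjusted p = 0.0288), the peptide deformylase gene Pdf (-0.38, adjusted p = 0.0397) and Rpusd4 (-0.41, adjusted p = 0.0308) were lower, 3 of 49 (6.12%, where 22.3% of all genes were called). The medians of the 49 genes were -0.13 and -0.11 in these comparisons, where all genes had -0.01. In the 5 other hippocampal comparisons 0 of 49 were called, with 1 or 2 at an unadjusted p under 0.05, and in the cortex 0 of 49 in any, with 1 to 5 at that level.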

How the data were processed

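Per the labels and the study's methods, NeuN-positive areas of paraffin sections were profiled with the GeoMx mouse whole transcriptome panel, and the deposited values are deduplicated counts per probe, which the authors made with the GeoMx NGS pipeline 2.0.0. The submitters' processing notes also name R 4.4.0 and edgeR. Probe alignment and a genome build for it are not given in the sources used here.

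A library stayed in if raw reads numbered 1000 or more, if 80% of them were trimmed, 80% stitched and 75% aligned, if saturation reached 50%, if its negative probes had a geometric mean of 1 or more, and if 5% of genes exceeded the quantitation limit. That limit was the geometric mean over 209 negative probes multiplied by the squared geometric SD (exponent 2), never under 2, and a negative count of 0 was taken as 0.5. This left 225 of 285 libraries and 87 of 90 neuron libraries. Rows for probes outside the panel held 0.00869% of all counts and were not used. A gene was tested if it exceeded that limit in 5% or more of the 225 libraries, which include other stained areas than neurons. Total gene counts per neuron library (157915 to 2022070) set the precision, and counting error is covered by the fit.

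For treatments the counts of a mouse were added up over its 4 hippocampal regions, or over its cortical libraries, and for regions within each region. Main tests used edgeR 4.0.16 (robust quasi-likelihood, two-sided, TMM scaling) in R 4.3.3, with slide as factor for treatments and the mouse as block for regions, and a Benjamini-Hochberg adjusted p under 0.05 over 10020 genes. Fold changes are log2 values. Regions are paired because they come from the same animal. The deviations of a mouse's regions from the region means correlated at a median of 0.156 (0.0224 to 0.419, 10 of 15 mice over 0.1), and those of different mice at -0.011 on average. Alternatives were DESeq2 1.42.0, limma 3.58.1 with voom and a random block, the background share as covariate, negative probe means subtracted, scaling by the upper quartile, no detection filter, no slide term, no mouse block, a mixed model on single libraries (lmerTest 3.1.3), and leaving out each mouse. Promoters were read from RefSeq tables (GRCm38.p6) with Python 3.11.15 and pandas 2.3.3. All 78 members matched a RefSeq gene.

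Named genes are, per region comparison, up to 5 called members per direction by smallest p, the other called members being listed too; per treatment comparison, members with the smallest p; called members of single regions; Mrpl12, Mrps12, Mrps18a to Mrps18c, Mrps36, Mrpl58, Mrps16, Mrpl44 and Mrpl3 whatever their values; and leading genes of the other mitochondrial translation lists. Members and lists were chosen with earlier results of these data known.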

Additional observations from a re-analysis of the deposited data

How the results depend on the processing

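Of 2226 values of 98 named genes and comparisons under the alternatives, 2168 were counted as keeping direction and side of the threshold. That count includes Mrpl4 in CA1 with DESeq2, which gave no adjusted p. Most of the 98 did not pass in the main fit. They also leave out some region calls that were often lost, such as Mrpl33 in DG and Mrps18b in CA3 and DG. The total therefore does not measure how stable the calls were. Of the other values, 37 no longer passed, 18 newly passed and 3 turned direction. Those 3 turned with the background share as covariate (Mrpl41 to -0.00273 and Mrps16 to -0.00913 in DG, Mrps26 to -0.118 in the hippocampus at 1x10Gy, FLASH against CONV). The cause was not tested. In that hippocampal comparison 1 member was called, against 0 with DESeq2, the covariate, subtraction of negative probes, no slide term or slide as random block, and 2 with upper quartile scaling or no detection filter (0 to 2 with 1 mouse left out). For FLASH 1x10Gy against CTRL the count was 0, against 1 with subtraction, no filter or upper quartile scaling (0 to 3 with 1 mouse left out). The mixed model gave 2, but it has no mouse term and takes the libraries of a mouse as independent. In the cortex, leaving out 1 mouse gave 0 to 2 for FLASH 1x10Gy against CTRL and 0 to 1 for FLASH against CONV at 1x10Gy. All other hippocampal and cortical comparisons stayed at 0 under every alternative.

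Called members numbered 13 in DG, 8 with the covariate and 6 with subtraction (11 to 14 with 1 mouse left out), 8 in the cortex, 5 with subtraction (8 to 8), and 1 in CA1, 2 with the covariate (1 to 2). SO had 0, and 1 with the mouse as random block (0 to 0), and CA3 had 13, with 11 to 19 under the alternatives (12 to 19). Without the replicate block, which pairs regions of a mouse, the counts were 1 in CA1, 14 in CA3, 12 in DG, 0 in SO and 8 in the cortex, and Mrps18b in DG was the 1 call lost. Single mice also ended calls of Mrps18b in CA3 and DG (in both CTRL A and FLASH 1x10Gy A, B and C, in CA3 also CONV 1x10Gy B, in DG also CTRL B), Mrpl33 in DG (CONV 1x10Gy B, CONV 3x10Gy C, CTRL A and C, FLASH 1x10Gy B and C, FLASH 3x10Gy C), Mrpl55 in DG (CONV 3x10Gy C, CTRL C), Mrpl20 (CTRL A, FLASH 3x10Gy C), Mrps15 (CTRL A), Mrps10 (FLASH 1x10Gy C) and Mrps24 (CONV 3x10Gy A) in CA3, and Mrpl10 (FLASH 1x10Gy B), Mrpl58 (FLASH 1x10Gy A) and Mrps16 (CONV 3x10Gy C) in DG. Leaving out single mice brought in Mrps12 in CA3 (CONV 1x10Gy B, CONV 3x10Gy A or B, CTRL C, FLASH 1x10Gy A or B) and in DG, lower (CONV 1x10Gy B or C, CONV 3x10Gy C, CTRL A), and Mrpl12 in DG (CONV 3x10Gy A or C, FLASH 1x10Gy A, B or C, FLASH 3x10Gy B), and Mrps36 passed in CA3 without the detection filter. Over the single hippocampal regions 1 member was called (Mrpl4), against 0 with DESeq2 (which gave no adjusted p for it), the covariate, no slide term or slide as random block, and 2 others with subtraction (Mrpl57 and Mrps23 in CA3). With 1 mouse left out the count was 0 to 2, and without CTRL A Mrps14 in CA1, without CONV 1x10Gy C Mrpl58 in CA3 and without FLASH 3x10Gy B Mrps33 in CA3 passed, the last also without the filter. SO without CTRL mouse C could not be fitted. Signal near the negative probes and 3 mice per group limit what could be detected.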
